A study of Mus musculus with 15 samples.

Results

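The genes described here are 10 that carry growth hormone and insulin-like growth factor (IGF) signals in muscle, out of 42396 gene entries measured. They are the growth hormone receptor Ghr, the transcription factors Stat5a and Stat5b, the feedback inhibitors Socs2, Cish and Socs3, the ligands Igf1 and Igf2, the receptor Igf1r and the adaptor Irs1. They were taken by name from a list that was chosen by the C-del and mock levels of both sexes, which were known when it was drawn up. Differences between C-del and mock are therefore given for these 10 genes as a description. Where one of them is said below to be called or not, that is its standing in the fit of all genes and no independent test of it. All 10 passed the filter on low counts in each sex, and none is left out below.

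RNA was sequenced from the tibialis anterior, a fast muscle at the front of the lower leg, of C57BL/6 mice injected as adults, males and females alike. The adeno-associated virus AAV6 had been given in the hindlimb 2 months earlier, to express LSMEM2 C-del or, in the mock groups, the green fluorescent protein EGFP. The libraries numbered 4 in male mock, 4 in male C-del, 3 in female mock and 4 in the female group with C-del. Every group, mock included, thus had virus and a foreign protein, no group was left without injection, the promoter that drives the transgene is not given in the sources used here, and the name C-del is left unexplained by the labels. Whether each library of a group is a separate animal is not stated, so a p-value here rests on library-to-library spread that could be technical. Each sex has its own deposited table, and a difference between sexes cannot be told apart from a difference between the 2 tables.

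Growth hormone binds GHR on the cell surface, which activates the kinase JAK2 and through it the transcription factors STAT5A and STAT5B. STAT5 switches on Igf1 and, within a short time, Socs2 and Cish, whose proteins dampen the same receptor, so that both transcripts are widely read as markers of STAT5 activity. IGF1 and IGF2 act through IGF1R and adaptors such as IRS1 on the PI3K and AKT pathway, which drives muscle growth, and growth hormone is released in a pulsed pattern in male rodents and more evenly in females. SOCS3 answers mainly to cytokines of the IL-6 family acting through STAT3.

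STAT5 binds the palindrome TTCNNNGAA, in which N is any base and which reads the same on both strands. The letters were searched in RefSeq promoter windows of GRCm38.p6, from 250 bases before to 50 bases after each annotated start. Of the 10 genes, 9 had a window, and 2 of these, Cish and Socs3, held the letters, as did 9.55% of all genes with a window. By windows it was 2 of the 15 of these genes and 8.3% of 32851 in all, and 0.457% held them 2 or more times, as the Cish window did. The stretches around the matches are shown, because Cish had the widest range of levels of the 10 genes as a ratio of highest to lowest, with the matched letters in capitals. That of Cish runs over chr9:107296579-107296683 on the plus strand of GRCm38.p6 with matches that begin at bases 1 and 12 of the transcript. That of Socs3 runs over chr11:117969476-117969556 on the minus strand, with a match that begins at base -154 from the start.
Cish: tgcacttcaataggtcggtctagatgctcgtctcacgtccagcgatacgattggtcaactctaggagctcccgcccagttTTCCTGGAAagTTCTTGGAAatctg
Socs3: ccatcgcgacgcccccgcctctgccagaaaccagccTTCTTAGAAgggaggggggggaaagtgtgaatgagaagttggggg
A match of letters describes the sequence and does not show that STAT5 is bound there. No match was found in the windows of Ghr, Stat5a, Stat5b, Igf1, Igf1r, Igf2 or Irs1.

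Library totals ran from 14297600 to 17744000 counts in males and from 9285100 to 12054900 in females. Lsmem2, the delivered gene, stood at 28.7 to 29.9 CPM (counts scaled to the effective size of each library) in male mock and 486 to 2382 CPM in male C-del libraries. In females it was at 29.1 to 32.7 CPM with mock and 1335 to 2676 CPM with C-del. The extraction text speaks of hearts while the labels name skeletal muscle. The fast myosin gene Myh4 was at 22103 CPM or more in each library, and the atrial genes Nppa and Myl7 were at 0.137 CPM or less. The heart myosin gene Myh6 was at 2.92 to 7.62 CPM, and all 7 listed heart markers summed to 8.25 to 32.6 CPM per library. Some libraries held more immune RNA. The summed level of 10 macrophage markers was 543 and 271 CPM in female mock libraries 2 and 3, and 187 and 208 CPM in male C-del libraries 1 and 2, against 55.7 to 113 CPM in the other 11. Female mock library 2 also had 518 CPM of lymphocyte markers and library 3 had 29.3 CPM, against 1.36 to 5.67 CPM elsewhere. In bulk tissue, fewer cells of a type and less RNA per cell cannot be told apart.

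Cish and Socs2, the feedback inhibitors that STAT5 switches on, had the largest differences between C-del and mock among the 10 genes in males, where both were lower with C-del. In females Cish was again lower on average, by less and with overlapping groups, while Socs2 was higher on average, also with overlap. The receptor Ghr was slightly lower in males. The STAT5 genes and the IGF ligands and receptor differed by 0.43 or less on the log2 scale in either sex. A gene is called below when edgeR's quasi-likelihood test gave it a Benjamini-Hochberg adjusted p under 0.05 over all genes tested. Of the 10 genes, 3 were called in males, 0 higher and 3 lower (Socs2, Cish and Ghr), where 11.2% of all tested genes were called, 5.8% of the tested genes higher and 5.37% lower. The same 3 were those whose male groups did not overlap, all lower, as for 8.28% of all genes, with 0 higher beside 9.34%. Since the genes were chosen with this comparison known, nothing is read from these shares. The median log2 fold change of the 10 was -0.18 in males, beside -0.0047 over all tested genes, and 0.14 in females, beside -0.015.

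**Figure D1:**
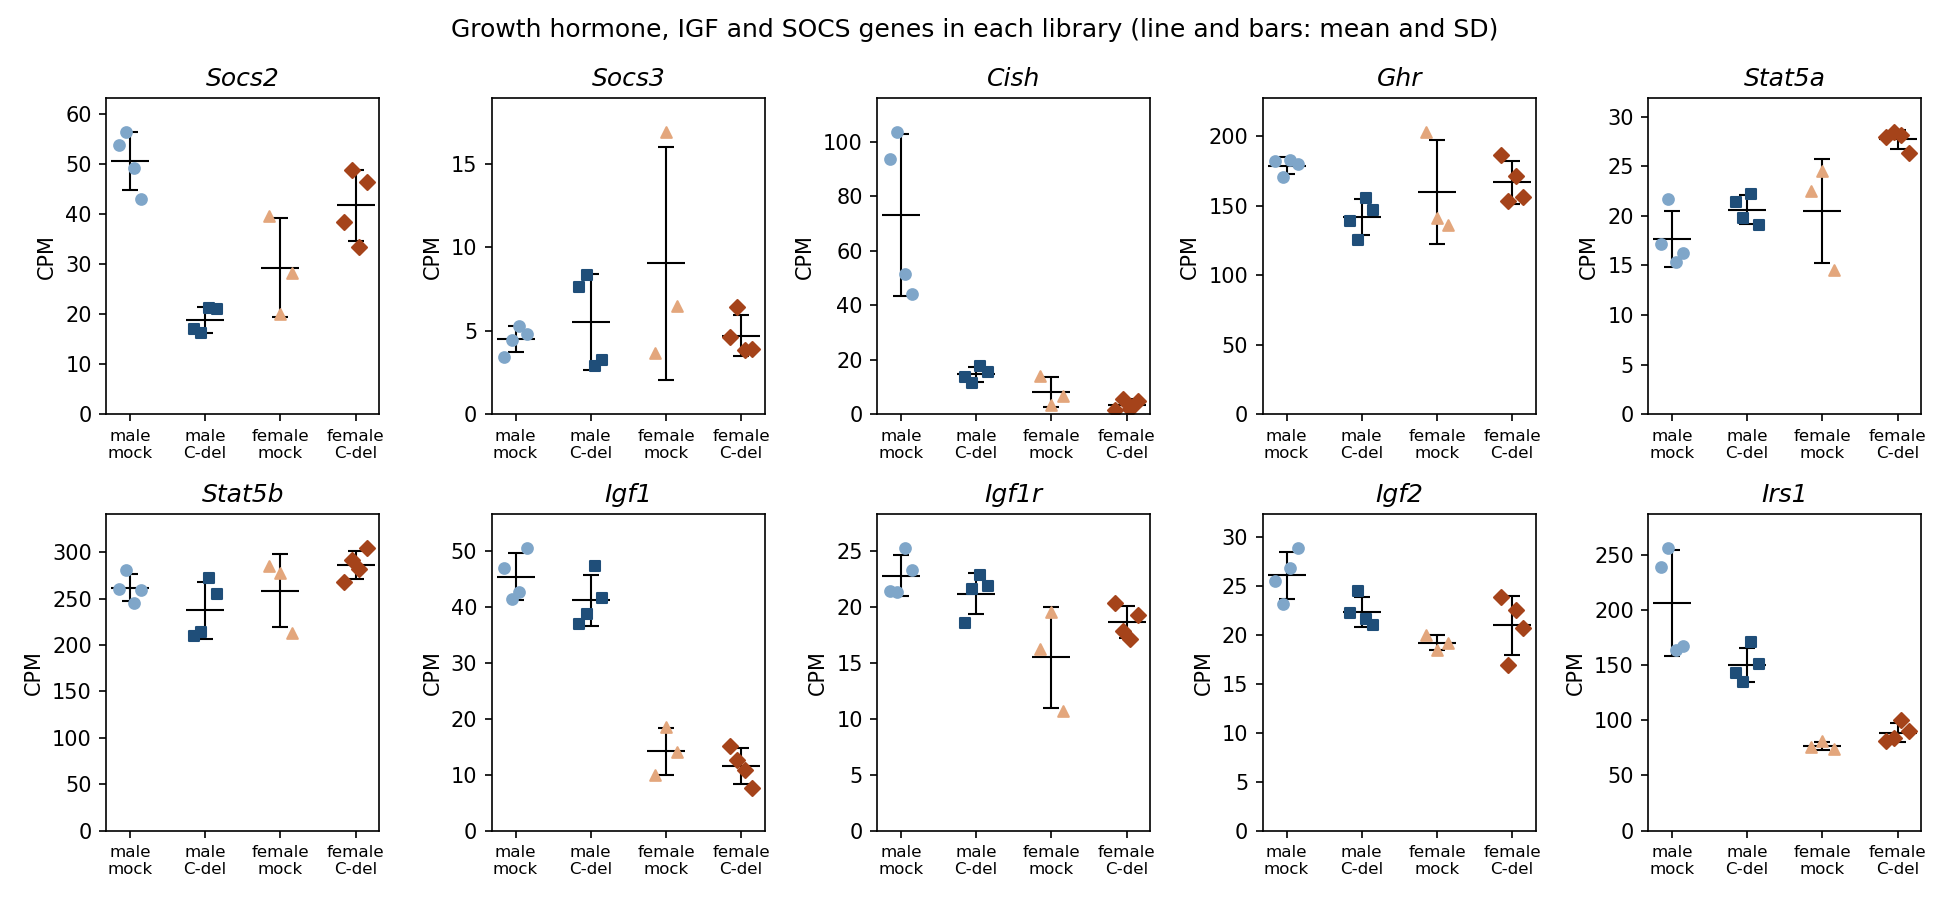
Level of each of the 10 genes in each library, in CPM on a linear axis from 0, by group (points: libraries; line and bars: mean and SD; n = 4, but 3 for female mock). Socs2 and Cish are lower in all male C-del libraries than in any male mock library, and Igf1 and Irs1 are lower in all female than in all male libraries.

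Cish encodes CIS, a SOCS-family protein that binds activated cytokine receptors and keeps STAT5 from docking. The gene lies on chromosome 9 from 107296659 to 107302784, which is 289841 bases from Lsmem2 on the same chromosome. In male mock libraries 1 to 4 its level was 93.8, 104, 51.4 and 44.0 CPM, and in male C-del libraries 13.7, 11.5, 17.7 and 15.7 CPM. All 4 C-del libraries were below all 4 mock libraries, and mock libraries 1 and 2 were well above mock libraries 3 and 4. Markers of fibro-adipogenic progenitors summed to 1078, 1035, 2248 and 1758 CPM in mock libraries 1 to 4, and to 1032 to 1338 CPM with C-del. Their part in the spread of Cish was not tested. The fitted log2 fold change was -2.33 ± 0.35 (SE, n = 4 each), a 5.03-fold lower level. Without male C-del libraries 1 and 2, which had more macrophage RNA, it was -2.14 and no longer called. Markers of other cell types also differed between the male groups. Pericyte and smooth muscle markers summed to 1129 to 1154 CPM with C-del against 1284 to 1348 CPM with mock, and 6 of 8 were called, all lower. Tendon markers summed to 197 to 337 CPM against 319 to 503 CPM, with a median log2 fold change of -0.78 and 1 of 8 called. The part of these cells in the lower Cish, Socs2 and Ghr of males was not tested.

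In females Cish was at 14.2, 3.57 and 6.81 CPM in the mock libraries and at 1.67, 5.62, 2.01 and 4.88 CPM in the C-del libraries. The groups overlap through mock library 2. The log2 fold change was -1.20 ± 0.54 (SE, n = 3 and 4), which was not called, and it was -2.01 without the immune-rich mock libraries 2 and 3. These are low counts, down to 19 reads in one female C-del library. The female minus male effect, from 1 fit of all 15 libraries, was 1.13 ± 0.69 (SE) and was not called either, so a smaller effect in females was not detectable here.

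Socs2 encodes an inhibitor that marks the growth hormone receptor for breakdown, and mice without it grow large. It lies on chromosome 10 from 95383903 to 95417321. The male mock libraries had 53.8, 56.4, 49.2 and 43.0 CPM, and the male C-del libraries 17, 16.3, 21.3 and 21.0 CPM. The groups lie far apart, with a log2 fold change of -1.43 ± 0.10 (SE, n = 4 each), 2.69-fold lower.

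The female libraries showed no such loss of Socs2. They had 39.6, 20.1 and 28.2 CPM with mock and 38.4, 48.7, 33.4 and 46.3 CPM with C-del. The groups overlap, since mock library 1 lies within the C-del range, and the 2 lower mock libraries are the ones rich in immune RNA. The log2 fold change was 0.51 ± 0.22 (SE, n = 3 and 4) and not called. It was 0.79 and called without mock library 1, and 0.079 without mock libraries 2 and 3. Pericyte and smooth muscle markers summed to 867 to 988 CPM in female mock and 1014 to 1123 CPM in female C-del libraries, with 0 of 8 called by edgeR.

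The female minus male effect on Socs2 was 1.94 ± 0.26 on the log2 scale (SE, 15 libraries), the single one of the 10 genes to be called in that comparison, where 0.354% of all genes were (0.17% higher and 0.183% lower). It was 1.495 without female mock libraries 2 and 3, a fit in which the 1 female mock library left is assumed to vary like the other groups. The part of the immune RNA in the female value was not tested beyond this.

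**Figure D2:**
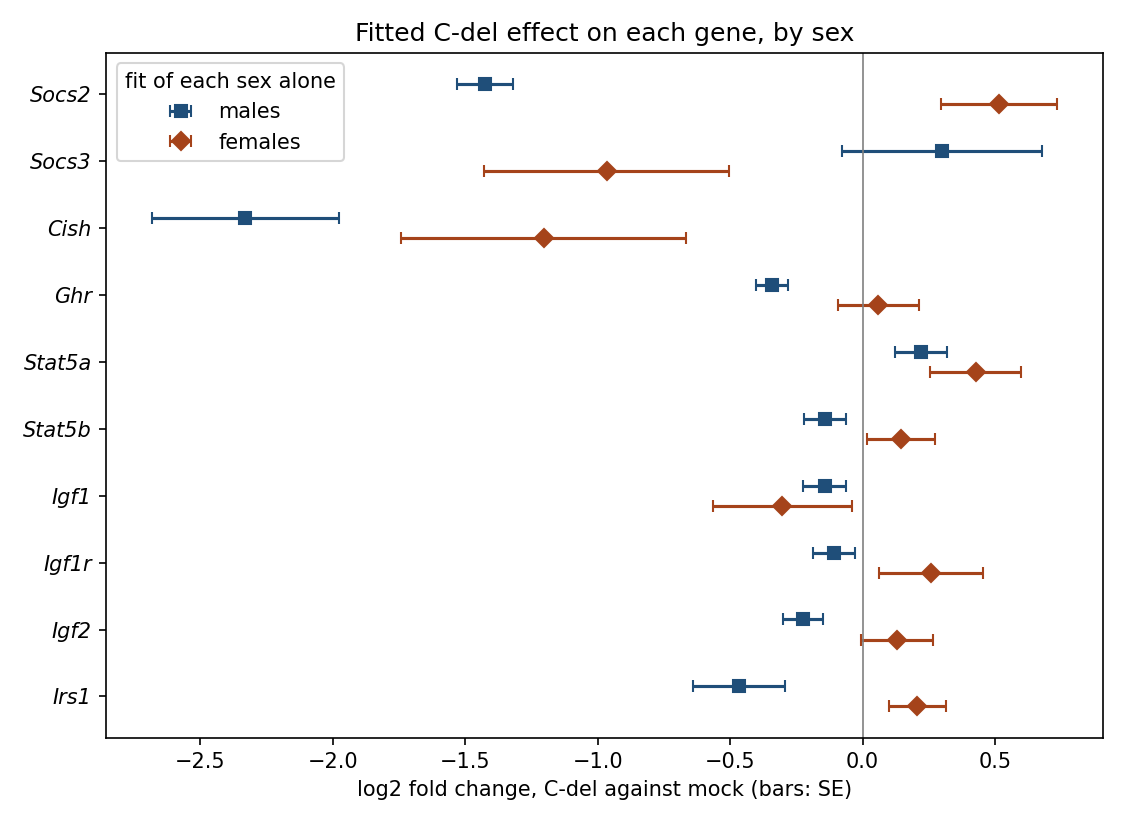
Fitted log2 fold change of C-del against mock for each gene, with males (squares) and females (diamonds) fitted apart (bars: SE). Socs2 stands at -1.43 in males and 0.51 in females, and Cish is below 0 in both.

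Socs3, the inhibitor induced mainly by IL-6 family cytokines, did not share the pattern of Socs2 and Cish. It was at 3.45, 4.47, 5.28 and 4.83 CPM in male mock and at 7.62, 8.37, 2.91 and 3.23 CPM in male C-del libraries. The C-del libraries lie on both sides of the mock libraries, and the log2 fold change was 0.30 ± 0.38 (SE, n = 4 each). The 2 high libraries are those with 187 and 208 CPM of macrophage markers, and without them the value was -0.55.

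In females Socs3 was at 3.69, 16.9 and 6.48 CPM with mock and at 4.65, 6.43, 3.85 and 3.89 CPM with C-del. The highest level of the series, 16.9 CPM, was in the library with 543 CPM of macrophage markers. The log2 fold change was -0.97 ± 0.46 (SE, n = 3 and 4), and 0.36 without mock libraries 2 and 3. Socs3 thus changed direction in each sex once the libraries rich in macrophage RNA were left out, and it was called in neither.

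**Figure D3:**
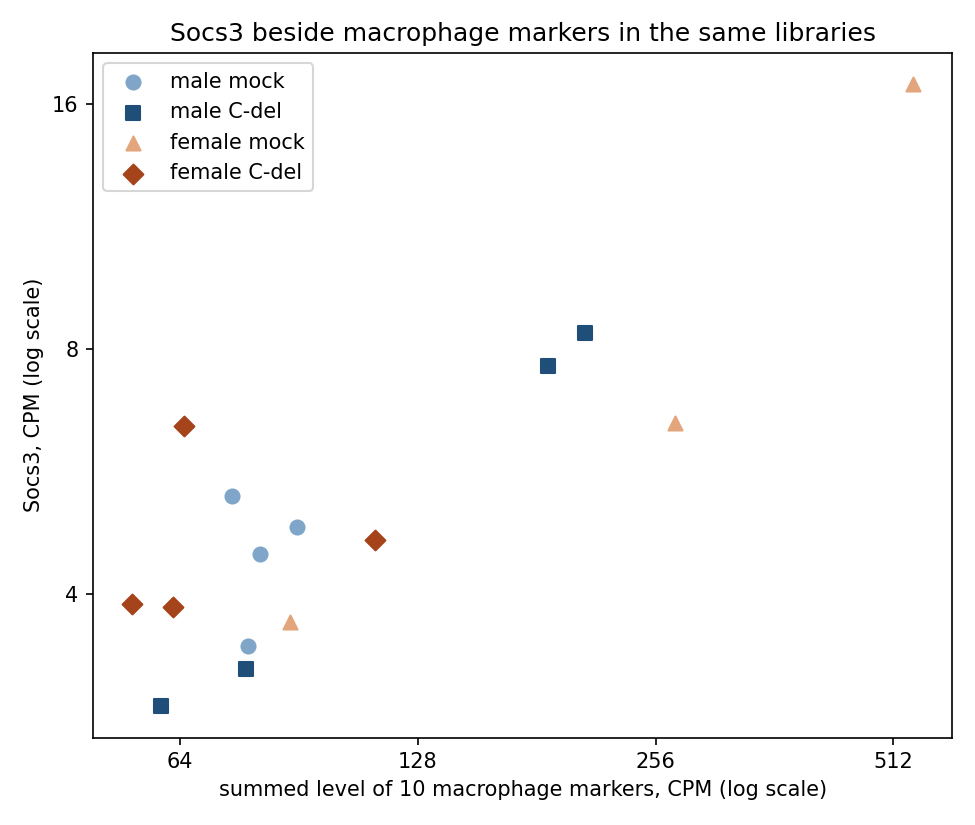
Level of Socs3 against the summed level of 10 macrophage markers in each of the 15 libraries (both in CPM, log axes, 1 point per library). The library with 543 CPM of markers has the highest Socs3, and male C-del libraries 1 and 2 stand above the other male libraries in both.

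Ghr, the receptor itself, lies on chromosome 15 from 3317755 to 3583352. It was at 182, 170, 182 and 180 CPM in male mock and 139, 125, 155 and 147 CPM in male C-del libraries. The groups do not overlap, though the shift is small, at -0.34 ± 0.06 (SE, n = 4 each) or 1.27-fold lower. The call was lost when all 4 groups were fitted together, with the value still at -0.34. In females it was at 203, 141 and 136 CPM with mock and 187, 153, 171 and 156 CPM with C-del, which overlap, with a log2 fold change of 0.06 ± 0.15 (SE, n = 3 and 4).

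Stat5a and Stat5b, the transcription factors downstream of the receptor, lie 346 bases apart on chromosome 11 and are close relatives, so reads may be shared between them. Stat5a was at 17.2, 21.7, 15.4 and 16.2 CPM in male mock and 21.4, 19.8, 22.2 and 19 CPM in male C-del libraries, with a log2 fold change of 0.22 ± 0.10 (SE) and overlapping groups. In females it was at 22.5, 24.5 and 14.5 CPM with mock and 27.9, 28.5, 28.1 and 26.3 CPM with C-del. All 4 female C-del libraries were above all 3 mock libraries, as for 5.69% of all genes (and 4.2% for the opposite order), but the value of 0.43 ± 0.17 (SE) was not called. Stat5b, the more abundant of the pair, ranged from 210 to 304 CPM over the 15 libraries and overlapped between groups in both sexes, with log2 fold changes of -0.14 ± 0.08 in males and 0.14 ± 0.13 in females (SE).

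Igf1, the ligand that growth hormone induces, was at 47.0, 41.4, 42.6 and 50.5 CPM in male mock and 37.0, 38.8, 47.4 and 41.7 CPM in male C-del libraries. The overlap is wide, and the log2 fold change was -0.14 ± 0.08 (SE). In females it was at 9.99, 18.4 and 14.1 CPM with mock and 15.2, 12.6, 10.8 and 7.57 CPM with C-del, at -0.30 ± 0.26 (SE), again with overlap. So Igf1 did not separate C-del from mock in either sex, while Socs2 and Cish did in males. Igf2, a growth factor best known for its role before birth, ranged from 16.9 to 28.9 CPM over all libraries, with log2 fold changes of -0.23 ± 0.08 in males and 0.13 ± 0.13 in females (SE), neither called.

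Igf1r, the receptor for both ligands, ranged from 10.7 to 25.2 CPM and overlapped between groups in each sex, at -0.11 ± 0.08 in males and 0.26 ± 0.19 in females (SE). Irs1, the adaptor that links this receptor and the insulin receptor to PI3K, was at 240, 256, 164 and 168 CPM in male mock and 143, 135, 171 and 151 CPM in male C-del libraries. Mock libraries 1 and 2, which also had the highest Cish, stand well above the C-del libraries. Mock libraries 3 and 4, which had the most RNA of fibro-adipogenic progenitors, lie within the C-del range. The log2 fold change was -0.47 ± 0.17 (SE) and not called. Without mock libraries 3 and 4 it was -0.73 and called. In females Irs1 was at 76.1, 80.9 and 73.6 CPM with mock and 81.1, 83.8, 100.03 and 90.7 CPM with C-del. The C-del libraries were all higher by a narrow margin, with a value of 0.21 ± 0.11 (SE) that was not called.

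In females 0 of the 10 genes were called by edgeR, where 0.0141% of all tested genes were. DESeq2 also gave 0, where it called 376 of 14220 genes. At an unadjusted edgeR p under 0.05 there were 2, Stat5a and Socs2, both higher with C-del. The genes under that p were not counted over the whole table, so nothing is read from it.

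Socs2 and Cish also varied together among libraries of the same group, which the choice of genes did not use. Deviations from the group mean of log2(CPM + 1) were compared for all 45 pairs of the 10 genes over the 15 libraries. For Socs2 and Cish, Pearson's r was 0.915 and Spearman's rho 0.911, with permutation p-values within groups of 0.00033 and 0.00034 (two-sided, 100000 permutations). Adjusted over the 45 pairs these were 0.0148 and 0.0153, and no other pair passed for r. Without the 2 libraries farthest from the median of Cish, which were female mock libraries 1 and 2, r was 0.873. It was 0.844 within the 8 male libraries, 0.946 within the 7 female libraries, and 0.873 over the 12 libraries outside female mock. That last set is nearly the one just given, so the 2 values of 0.873 are not separate checks. Stat5a and Stat5b came next, at r of 0.661, with an adjusted permutation p of 0.377. The points share library preparation and depth. Within female mock the order of Socs2 and Cish is the reverse of the order of macrophage RNA, and in male C-del the macrophage-rich libraries 1 and 2 have the lowest levels of both, so leaving out female mock does not remove that overlap.

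**Figure D4:**
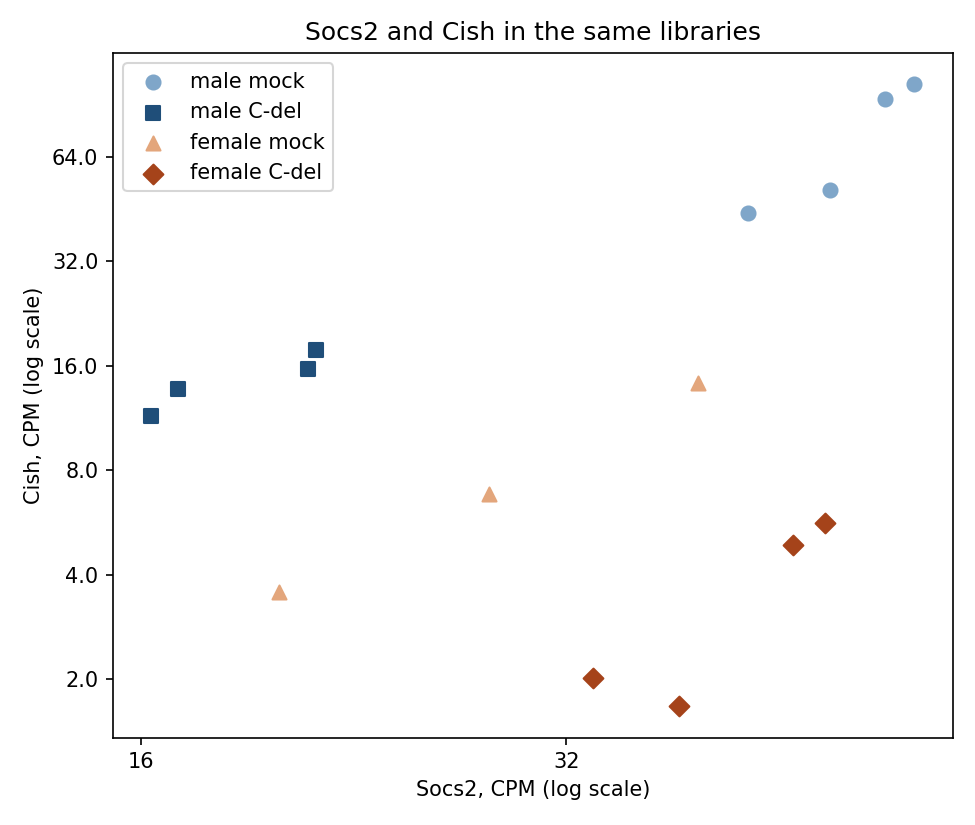
Level of Cish against Socs2 in each library (CPM, log axes, 1 point per library). Within each of the 4 groups libraries with more Socs2 tend to have more Cish (r = 0.915 over deviations from group means), while the groups differ in the Cish level reached at a given Socs2.

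Female and male mock libraries were compared next. The mock levels of both sexes were known when the genes were chosen, so a gene picked for a high male mock level tends to stand high here too. The 10 genes are therefore given with no p, as a description, and nothing is read from the count. Of the 10, 6 were called by edgeR in the fit of all 15 libraries, all lower in females, where 23.3% of all tested genes were called, 12.7% higher and 10.6% lower. The same 6 were those whose groups did not overlap, all lower in females, beside 13.9% of all genes lower and 11.5% higher. The median log2 difference was -0.49, beside 0.026 over all genes. Cish showed the widest gap, at -3.19 ± 0.48 (SE) or 9.10-fold lower in females. Igf1 was 3.17-fold lower, at -1.67 ± 0.20 (SE), and Irs1 2.69-fold lower, at -1.43 ± 0.15 (SE). For these 3 genes no female mock library reached the level of any male mock library, and the value kept its sign under all 22 alternatives tried.

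The other 3 called genes had smaller gaps between the mock groups. Socs2 was at -0.79 ± 0.19, Igf1r at -0.55 ± 0.15 and Igf2 at -0.44 ± 0.11 (SE). Without the immune-rich female mock libraries 2 and 3, Socs2 was at -0.36 and Igf2 at -0.39. In that fit the 1 female mock library left is assumed to vary like the other groups. Ghr, Stat5a, Stat5b and Socs3 were not called, at -0.16 ± 0.12, 0.23 ± 0.15, -0.01 ± 0.11 and 1.03 ± 0.46 (SE). The C-del libraries show the same order as the mock libraries for the 3 widest gaps. Female C-del libraries had at most 5.62 CPM of Cish against at least 11.5 CPM in male C-del, at most 15.2 against at least 37.0 CPM of Igf1, and at most 100.03 against at least 135 CPM of Irs1. Cell type markers differed between the mock groups too. Pericyte and smooth muscle markers summed to 867 to 988 CPM in females against 1284 to 1348 CPM in males, with 8 of 8 called lower. Satellite cell markers summed to 51.0 to 80.0 CPM against 94.4 to 101.9 CPM, with 3 of 6 tested called lower, and 7 of 10 macrophage markers were called higher in females. Their part in these gaps was not tested.

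Divided by the length of its annotated exons, merged over all transcripts, the level of a gene can be set roughly beside that of another. For Cish this length, from the GENCODE annotation, is 6419 bases, more than the RefSeq span of the gene from 107296659 to 107302784. Its values per kilobase may therefore be too low, and its place in the order is uncertain. In male mock libraries Stat5b was at 47.2 ± 2.63 CPM per kilobase (SD, n = 4), followed by Irs1 at 22.6 ± 5.25 and Ghr at 19.7 ± 0.644, which do not differ beyond their spread. Cish followed at 11.4 ± 4.66 CPM per kilobase. Socs2 at 5.31 ± 0.615, Igf1 at 4.58 ± 0.422 and Igf2 at 4.57 ± 0.419 CPM per kilobase lie within their spread of one another. Stat5a was at 2.47 ± 0.395, and Socs3 at 1.56 ± 0.269 and Igf1r at 1.36 ± 0.111 CPM per kilobase closed the order, the last pair within their spread. In male C-del libraries Socs2, at 1.98 ± 0.276 CPM per kilobase (SD, n = 4), was below Igf1 at 4.16 ± 0.459. Cish was at 2.28 ± 0.418, with the same limit on its length.

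Around these 10 genes, 103 further genes of the pathway were followed in 6 lists, of which 88 were tested in each sex. In males 23 of the 88 were called by edgeR, 14 higher and 9 lower, beside 11.2% of all genes. The lists were drawn up with earlier results of these data known, so nothing is read from this share. The adjusted p-values given below for these genes are their standing in the fit of all genes and no independent test. The median log2 fold change of the 88 was 0.011. Each list held genes called in both directions. Of 12 other STAT5 targets 6 were called (4 higher, 2 lower), and of 27 genes of insulin and IGF receptor signalling 7 (5 and 2). For kinases, phosphatases and adaptors of the growth hormone receptor it was 3 of 15 (2 and 1). IGF binding proteins and related genes had 3 of 12 (1 and 2), and other SOCS, STAT and PIAS genes 2 of 12 (1 and 1). The list named IL-6 family inputs, which also holds Il15 and Il15ra from outside that family, had 2 of 10 (1 and 1).

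Of the other genes listed as STAT5 targets, 4 rose in males while Socs2 and Cish were lower. Bcl2l1, which encodes the survival protein BCL-XL, rose from 15.4, 14.9, 13.7 and 13.5 CPM with mock to 25.7, 25.4, 29.8 and 27.0 CPM with C-del, at 0.90 ± 0.07 (SE, edgeR adjusted p = 4.51e-06). The groups are well apart. Cdkn1a, an inhibitor of the cell cycle, rose by 0.80 ± 0.13 (SE, edgeR adjusted p = 0.00128) and Id1, a blocker of helix-loop-helix factors, by 0.60 ± 0.10 (SE, adjusted p = 0.00184). Bcl6, a repressor that STAT5 is known to hold down and that competes with it for binding sites, rose by 0.41 ± 0.06 (SE, edgeR adjusted p = 0.000664). The list's 2 lower genes were the kinase Pim1, at -0.36 ± 0.11 (SE, edgeR adjusted p = 0.0458), and Igfals, which stabilises IGF in blood, at -0.39 ± 0.11 (SE, adjusted p = 0.0404).

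Irs2, the relative of Irs1 that also links insulin and IGF receptors to PI3K, rose in males from 37.8, 36.3, 26.7 and 28.1 CPM to 74.9, 107, 95.1 and 83.2 CPM. That is a log2 fold change of 1.48 ± 0.15 (SE, edgeR adjusted p = 0.000774), opposite in sign to the value of Irs1. Stat3, the factor that SOCS3 restrains, rose by 0.33 ± 0.05 (SE, edgeR adjusted p = 0.000445), and Trib1, a pseudokinase, by 0.34 ± 0.06 (SE, adjusted p = 0.00152). Gab1, a docking protein, fell by 0.59 ± 0.08 (SE, adjusted p = 0.000354 by edgeR), and Lifr, the receptor of leukaemia inhibitory factor, fell by 0.39 ± 0.07 (SE, adjusted p = 0.0021). H19, the noncoding RNA next to Igf2 in the same imprinted cluster, rose by 0.61 ± 0.09 (SE, edgeR adjusted p = 0.00306), while Igf2 itself was not called. Stat3, Bcl6, Lifr and H19 lost their calls when all 4 groups were fitted together, where 8 of the 88 were called in place of 23. Over all genes that fit called 380 of 15272, in place of 1624 of 14543.

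In females 0 of the 88 pathway genes were called by edgeR. DESeq2 called 4, beside 376 of 14220 genes in all. At an unadjusted edgeR p under 0.05 there were 16 of the 88, with 8 higher and 8 lower, a count not taken over all genes. Those with the smallest p were Fos at 2.31 ± 0.38, Id1 at 0.93 ± 0.20 and Ptpn6, a phosphatase of blood cells, at -3.83 ± 0.88 (SE, n = 3 and 4). Ptpn6 was at 1.30, 27.2 and 7.91 CPM in female mock libraries 1 to 3, in the order of their macrophage RNA, and at 0.419 to 1.39 CPM with C-del. For the female minus male effect 1 of 92 pathway genes was called, beside 0.354% of all genes. There 20 had an unadjusted edgeR p under 0.05, again a count not taken over all genes. The called gene was Bcl2l1, with a value of -1.10 ± 0.19 (SE, edgeR adjusted p = 0.0226). Its female value was -0.20 ± 0.19 (SE).

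**Figure D5:**
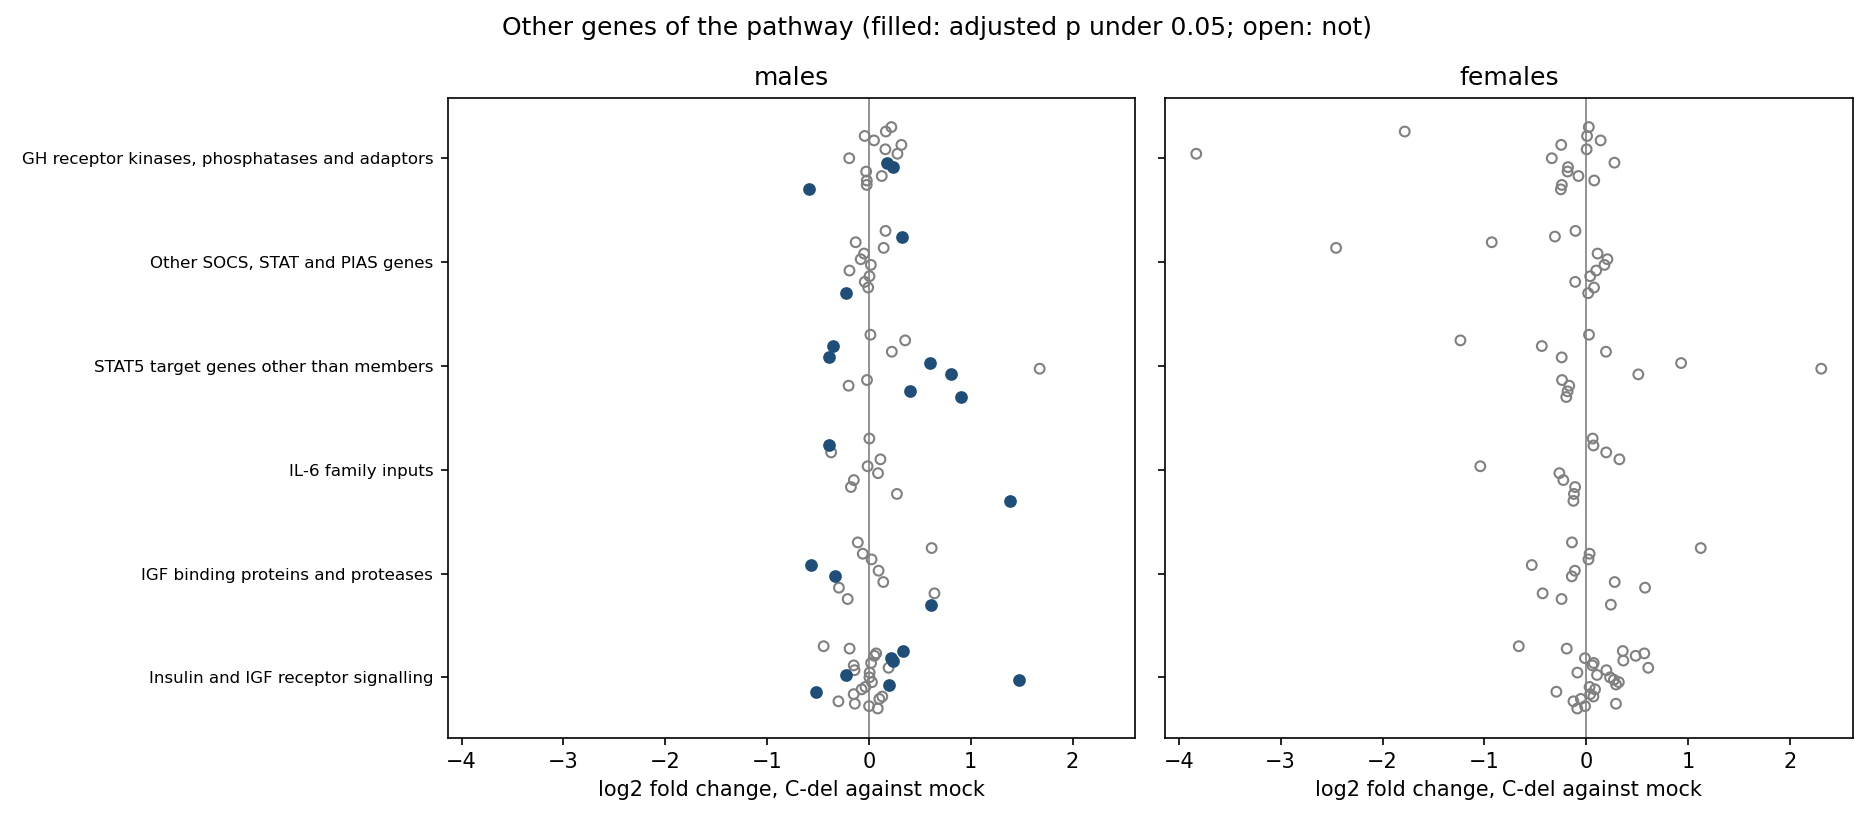
Log2 fold change of C-del against mock for the 88 tested pathway genes in 6 lists, in males (left) and females (right), 1 point per gene (filled: edgeR adjusted p under 0.05; open: not). In males 23 genes are filled, on both sides of 0, and in females 0 are.

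Genes whose log2(CPM + 1) ran most like that of Socs2 over the 15 libraries were looked up after each sex's mean was subtracted. The search covered 8989 genes with a mean of at least 5 CPM in each sex, without predicted-gene and clone names. These were Mib1, a ubiquitin ligase (r = 0.913), the Golgi gene Cog6 (0.905), Aebp1 (0.891), Hs2st1 (0.883) and Atcayos (0.875). The most opposed were Mrtfa (-0.887), Pnp (-0.868) and Tle4 (-0.866). In males Mib1 was at -0.77 on the log2 scale, the nearest of the 5 to the value of Socs2, and in females at 0.19. Group means were not subtracted, so the values include the difference between C-del and mock that was known when Socs2 was chosen. These correlations are across libraries that share groups, sexes and depth, and are given as a description.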

How the data were processed

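Values deposited are estimated counts per gene, made by the authors with featureCounts 2.0.0 against GRCm38.p6, per the submitters' processing notes. Which aligner was run, and whether strand was used in counting, is not given in the sources used here. Of the 10 genes, 5 (Socs2, Ghr, Igf1, Igf1r and Igf2) overlap another annotated gene. Between 14.6% and 17.3% of values per library were not whole (tolerance 0.001), although whole counts had been assumed in the design, so they were rounded. The library kit keeps strand and selects mRNA, per the labels' protocols.

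Each sex was fitted alone in R 4.3.3 with edgeR 4.0.16 (filterByExpr at a minimum count of 10, TMM, robust quasi-likelihood, Benjamini-Hochberg over all tested genes); the female minus male effect and the mock comparison came from 1 fit of all 4 groups. DESeq2 1.42.0 was an alternative, as were other scalings, filters, left-out libraries and, in females, a replicate block. CPM used TMM over all 15 libraries. Python 3.11.15 and matplotlib 3.10.9 drew the plots. Exon lengths came from the GENCODE annotation, gene positions from the RefSeq annotation of GRCm38.p6, and promoter sequences from RefSeq.

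The 10 genes, the 6 lists and the tests were chosen with earlier results of these data known. Named are the 10 genes and, of the lists, up to 10 called genes per sex by smallest adjusted p, or the 3 with the smallest p where fewer than 3 were called. Pim1 and Igfals were named outside this rule, after their values were seen. Female library numbers come from the sample titles, while male numbers are column numbers, which match the titles by group alone. Pairs of libraries of a group differed by a chi-square per gene of 2.62 to 43.8, so none was treated as a copy.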

Additional observations from a re-analysis of the deposited data

Results flagged for a closer look

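The C-del effect on Socs2 differed between the sexes by 1.94 on the log2 scale (female minus male, fit of all 15 libraries), being lower with C-del in 4 of 4 male libraries and higher on average in females. Socs2 was chosen with this difference known, and sex and table cannot be told apart. None of the 30 groups of 4 libraries held a library far enough from the others to stand out. Female mock, with 3 libraries, was not checked in this way.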

How the results depend on the processing

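Of 64 single-gene values, 48 kept their sign under all alternatives tried and 16 did not. Called counts changed as follows. Pathway genes called in males were 8 in the fit of all 4 groups and 13 without male mock libraries 3 and 4, against 23. They were 15 to 22 when 1 library at a time was left out. Over all tested genes these fits called 380 of 15272, 767 of 14984 and 1624 of 14543, and 1100 to 1526 with 1 library left out. In females the pathway genes called were 4 by DESeq2 and 10 in the fit of all 4 groups, against 0. With 1 library left out they were 0 to 8, the 8 being without mock library 1. Over all tested genes these fits called 376 of 14220, 777 of 15272 and 2 of 14220, and 1050 of 14706 without mock library 1. The pathway counts thus moved with those of the whole table, and nothing is read from them. Of the 10 genes, 3 to 5 were called in males and 0 to 1 in females with 1 library left out. The 5 came without male mock library 2, where 1424 of 14737 genes were called, and the 1 without female mock library 1. For the female minus male effect the number called was 2 by DESeq2, beside 656 of 15272 genes in all. It was 1 to 2 with 1 library left out, the 2 being without female mock library 1, where 1817 of 15791 genes were called. For female against male mock 6 to 8 were called with 1 library left out, 4 without female mock libraries 2 and 3, and 3 without these and male mock libraries 3 and 4, a setting chosen after seeing the data. The cause of these changes was not tested.

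Signs changed for these values, and 0 of the 27 values of changed sign were called. Ptpn6 in males ran from -0.21 (without C-del library 2) to 0.51 with 1 library left out, and was -0.64 without C-del libraries 1 and 2. With 1 library left out, Bcl2l1 in females ran from -0.36 to 0.024, Lifr in females from -0.078 to 0.26 and Stat5b between the mock groups from -0.10 to 0.11. Their changes of sign came without female mock library 3, and for Stat5b also, at 0.023, without male mock library 2. Without male C-del libraries 1 and 2, Socs3 and Stat5b in males were -0.55 and 0.007. With 1 library left out, Ghr in females reached -0.052 and Igf1 in the female minus male effect 0.10. Without female mock libraries 2 and 3, the female minus male effect was 0.36 for Igf1 and 0.049 for Socs3, and female values were 0.36 for Socs3, -0.28 for Ghr, 0.22 for Igf1, 0.20 for Stat3, -0.16 for Irs2, -0.24 for Lifr and -0.10 for H19, and those between the mock groups were -0.29 for Socs3, 0.18 for Ghr and 0.12 for Stat5b. Without male mock libraries 3 and 4 as well, the latter were -0.10, 0.20 and 0.072.

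Deviations of same-numbered female libraries correlated at -0.135, -0.00676 and -0.0405, and those of other mock and C-del pairs at -0.208 to 0.226. With so few libraries, this cannot tell whether the numbers pair them. With the replicate block in females 0 of the 10 genes and 0 pathway genes were called, as without it, and Socs2 was at 0.49. Counts of Cish were low in females, at 19 to 131 per library against 200 to 1530 in males. For Socs3 they were low in both sexes, at 34 to 199 in females and 43 to 146 in males. In female mock the single library without raised immune markers has no spread of its own.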
